A study of Drosophila melanogaster with 3 samples.

Results

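Peaks of GFP-tagged abd-A were described at divergent coding promoters, where the starts of protein-coding genes on opposite strands lie close together. A peak was counted here if its summit lay at most 500 bp from the nearest start of a protein-coding transcript and another protein-coding gene had a start on the opposite strand within 1000 bp of that start. Of the 8143 peaks kept by the irreproducible discovery rate (IDR, a measure of the repeatability of peak ranks), 381 (4.68%) met this rule, and they made up 19.3% of the 1970 peaks at coding promoters. They named 332 gene pairs and 658 genes, in 375 distinct intervals. The other 1589 promoter peaks, at coding starts with no such partner, are called single-direction here. Chromatin immunoprecipitation and sequencing were done with an antibody to GFP on whole Drosophila melanogaster embryos of both sexes at 4 to 24 h, from a transgenic line that stably expresses abd-A with GFP at its C-terminus. The 3 biological replicates formed 1 group with no other genotype or condition. The labels used here do not say how the transgene is driven or in how many copies, and which cells of the embryo gave a peak cannot be told from whole embryos. A peak is where signal was called, and whether the protein was bound there was not tested apart from nonspecific signal.

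Genes with opposite strands and neighbouring starts share a short stretch of DNA from which RNA polymerase II can leave in both directions. In the compact fly genome such pairs often hold genes of the basic cell machinery, whose promoters tend to carry the DNA replication-related element bound by DREF and BEAF-32 and the motif 1 word bound by M1BP. Promoters of developmentally regulated genes more often carry TATA boxes, initiators and GAGA elements, the last bound by GAGA factor. The Hox protein abd-A, which gives abdominal segments their identity, has a homeodomain that binds short AT-rich words, alone or with its partner Extradenticle.

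The DNA between the paired starts is shown for 5 of the strongest peaks whose summit lay between the starts, because it is the whole interval that the pair shares. Letters are those of the RefSeq release 6 genome (dm6), written 5′ to 3′ on the plus strand, so that the gene on the minus strand, named first, starts to the left and its partner to the right. Capitals mark the promoter and homeodomain words sought, on either strand, apart from the initiator and the CGATA core, which are too short and frequent to mark. The TATA box, near which transcription can begin, was sought as the word TATAAA at any distance from the starts. An E-box, bound by basic helix-loop-helix proteins and their relatives, is written CAGCTG. The posterior Hox word is written TTTATGG, and in PAPLA1/Rbsn-5 it lies on the minus strand and so appears as its reverse complement. In CG4022/Cpsf5 none of the marked words was found.
CG13390/CG17294 (chr2L:8376798-8377034, plus strand): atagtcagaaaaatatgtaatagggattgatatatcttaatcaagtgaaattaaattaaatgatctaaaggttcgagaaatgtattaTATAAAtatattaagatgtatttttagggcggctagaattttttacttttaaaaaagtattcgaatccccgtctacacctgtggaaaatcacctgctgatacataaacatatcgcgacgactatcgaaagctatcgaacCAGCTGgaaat
CG4022/Cpsf5 (chr3L:9410833-9411037, plus strand): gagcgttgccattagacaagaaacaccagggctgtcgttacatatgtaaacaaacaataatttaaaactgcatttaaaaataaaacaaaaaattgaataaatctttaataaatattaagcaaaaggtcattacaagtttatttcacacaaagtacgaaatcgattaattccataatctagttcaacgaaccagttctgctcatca
PAPLA1/Rbsn-5 (chr2L:8159639-8159831, plus strand): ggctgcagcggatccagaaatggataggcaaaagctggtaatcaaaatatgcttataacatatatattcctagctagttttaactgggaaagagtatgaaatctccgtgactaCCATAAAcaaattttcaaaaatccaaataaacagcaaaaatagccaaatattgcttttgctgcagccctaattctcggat
SelR/Tsp86D (chr3R:10868643-10868707, plus strand): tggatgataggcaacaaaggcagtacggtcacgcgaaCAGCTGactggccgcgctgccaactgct
Ube3a/CG7600 (chr3L:11210584-11210785, plus strand): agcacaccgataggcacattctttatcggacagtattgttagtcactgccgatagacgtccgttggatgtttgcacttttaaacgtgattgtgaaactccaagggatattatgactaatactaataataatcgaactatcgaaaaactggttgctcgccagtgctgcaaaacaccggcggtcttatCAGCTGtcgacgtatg
The summits lay at base 93, 76, 123, 46 and 84 of these stretches, in the order printed. The intervals held no annotated transcript. Cpsf5 encodes a pre-mRNA cleavage factor, Rbsn-5 an endosomal trafficking protein and Ube3a a ubiquitin ligase, all roles in basic cell function.

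Each replicate list and the list pooled over replicates ended at 30000 peaks, and read depth was unknown. Peak strength is given as the signal value of the strongest overlapping peak in a replicate's list divided by the median signal of that list. Signal values themselves can be compared within a list only, and the ratio gives a peak's standing in its own list. The lists ended at 0.441, 0.467 and 0.462 times their medians in replicates 1, 2 and 3. Neighbouring summits can share 1 replicate peak and then carry the same values. A pair is named by both genes even where the summit is near the start of 1 of them only. The replicate lists were called against 1 shared control file, whose reads were not used here.

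The strongest peaks at divergent promoters lay at genes of varied roles, and some of these genes had only a CG number. The strongest lay at Ugalt, the Golgi transporter of UDP-galactose, and eIF2Bbeta, a subunit of the exchange factor that recharges initiation factor eIF2. Its summit lay 35 bp from the Ugalt start and 684 bp from that of eIF2Bbeta. It ranked 27 in the IDR list (chrX:2703677-2704076) and stood at 14.5, 12.5 and 15.2 times the list median in replicates 1, 2 and 3. Each replicate placed it high, at rank 26, 36 and 19. The peak at CG11309/CG7632 stood at 10.03, 8.46 and 9.48 times the median. The peak at HPS4, a subunit of a Rab exchange factor for lysosome-related organelles, and Sema1b, a transmembrane semaphorin, stood at 8.56, 8.17 and 9.33 times. The order of these and the next few peaks changed between replicates. Atg6, the fly Beclin 1 of autophagy, and Pisd, a phosphatidylserine decarboxylase, start 1 bp apart, and their peak (chr3R:24050629-24051043) stood at 9.28, 7.41 and 9.01 times the median. At eIF4EHP, a cap-binding translational repressor, and CG18428 the values were 7.18, 9.88 and 7.94. The peak at HSPC300, a subunit of the SCAR complex that promotes actin branching, had its summit on the annotated start and reached 8.90, 8.10 and 7.15 times. By this ratio replicate 2 was the highest of the 3 at eIF4EHP and the lowest at Atg6.

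Further down, values of 5 to 8 times the median were common to all 3 replicates. The peak at eEF1alpha1, the elongation factor that brings aminoacyl-tRNA to the ribosome, and ERp60, a protein disulfide isomerase, stood at 7.34, 6.72 and 6.50 times. At Ttc7, which helps anchor phosphatidylinositol 4-kinase, and bin3, a methyltransferase named for binding Bicoid, the values were 6.31, 7.93 and 6.51. At smg, the Smaug repressor of maternal mRNAs, and CG5087 they were 6.52, 6.41 and 5.79. Of the 20 strongest, 15 kept all replicates above 5 times the median. The exceptions were 4 peaks absent from replicate 2 and the peak at CG3907/Xxylt, at 5.91, 1.26 and 5.65 times. Among peaks found in all 3 replicates, the median coefficient of variation over replicates was 16.3% at divergent promoters (359 peaks), 16.1% at single-direction promoters (1533) and 14.1% elsewhere (6111).

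**Figure D1:**
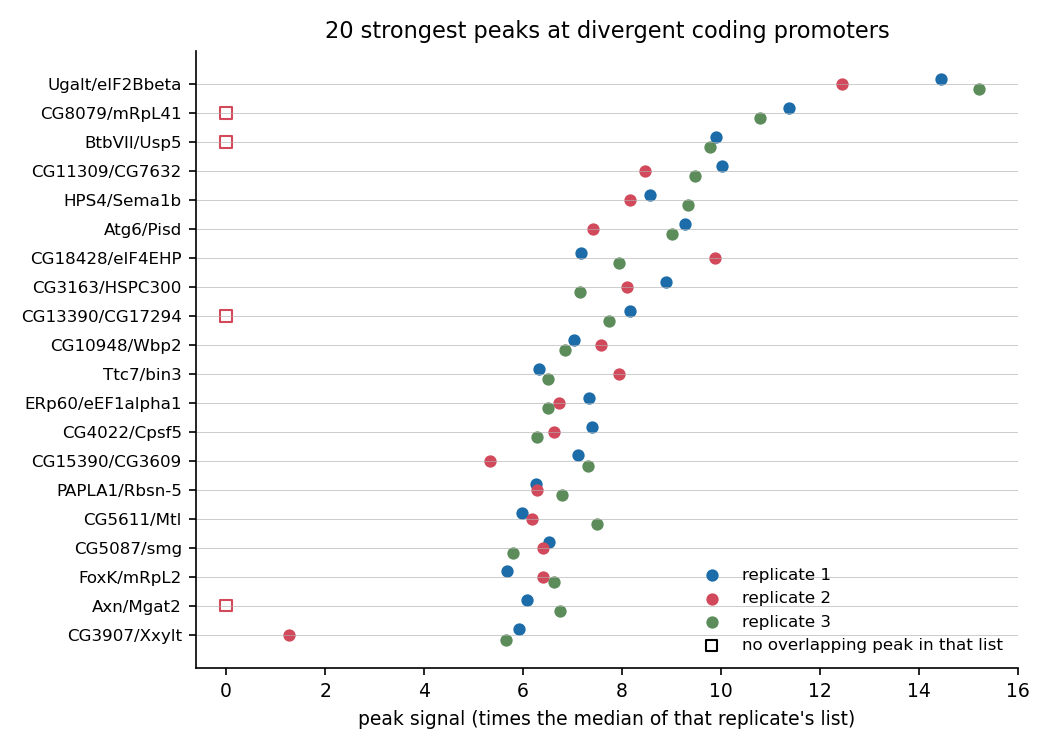
Peak signal in each replicate, as times that replicate list's median, for the 20 strongest peaks at divergent coding promoters, ordered by IDR rank. Filled points are replicates and open squares at 0 mark a list with no overlapping peak; 4 of the 20 have such a square, all for replicate 2, while Ugalt/eIF2Bbeta reaches 12.5 to 15.2.

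Several strong peaks at divergent promoters had no counterpart anywhere in the list of 1 replicate. The peak at CG8079 and mRpL41, a protein of the mitochondrial ribosome, ranked 69 in the IDR list. It stood at 11.4 times the median in replicate 1 and 10.8 in replicate 3, and no peak of replicate 2 lay closer than 21872 bp. At BtbVII/Usp5 (chr3L:3148965-3149545, rank 89) the values were 9.91 and 9.78, with the nearest replicate 2 peak 5134 bp away. At CG13390/CG17294 (chr2L:8376718-8377058, rank 177), whose shared DNA is printed above, they were 8.15 and 7.74, with the nearest 5525 bp away. At Axn, the Axin scaffold that promotes destruction of beta-catenin, and Mgat2, an enzyme of N-glycan synthesis (chr3R:30021928-30022258, rank 372), they were 6.07 and 6.74. There a replicate 2 peak lay 403 bp away at 0.63 times the median. In replicates 1 and 3 these peaks ranked 57 to 429 and 62 to 277 of 30000, far from the values of 0.441 and 0.462 at which those lists ended.

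In all, 22 of the 381 peaks (5.77%, 95% Clopper-Pearson interval 3.65 to 8.61) had no overlapping peak in at least 1 full replicate list. The share was 3.52% (2.67 to 4.55) at single-direction promoters, 1.00% (0.771 to 1.29) elsewhere and 1.72% over all IDR peaks. Replicate 1 lacked 1 of the 381, replicate 2 lacked 10 and replicate 3 lacked 12. The 22 include near misses, such as eff/jvl, where a replicate 3 peak at 3.93 times the median lay 15 bp away. Among the 500 strongest IDR peaks the absent ones were 4 of 28 at divergent promoters (14.3%, 4.03 to 32.7), 1 of 100 at single-direction promoters and 2 of 372 elsewhere. The limit of 500 was chosen after the values were seen. The peak at Ubi-p63E, a polyubiquitin gene, and Sc2 was listed in replicate 1 alone, at 4.99 times the median. At Pc, the Polycomb gene itself, and Rab26 replicates 1 and 3 stood at 2.16 and 2.43 times and replicate 2 had no overlapping peak, with the nearest 252 bp away at 2.46 times. What removed these peaks from a list was not tested, and intervals here and elsewhere cover counting error only.

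**Figure D2:**
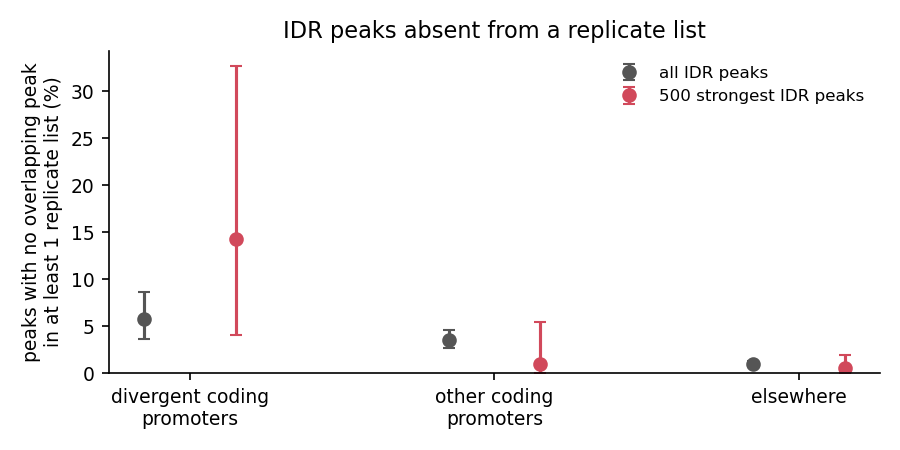
Share of IDR peaks with no overlapping peak in at least 1 of the 3 replicate lists, by position, for all IDR peaks and for the 500 strongest, with 95% Clopper-Pearson intervals. At divergent coding promoters the shares are 5.77% and 14.3%, the latter from 4 of 28 peaks.

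Divergent genes and other coding genes had a peak at their starts in the same share of cases. Of 13945 protein-coding genes on the main arms, 5141 (36.9%) had a start within 1000 bp of an opposite coding start. An IDR summit lay within 500 bp of a start of 656 of them, or 12.8% (11.9 to 13.7), which equals the 12.8% of all coding genes and the 12.8% (12.1 to 13.5) of the 8804 others. A summit near both starts counts for both genes of a pair. A gene was divergent if any of its starts had a partner, and a summit at any of its starts was counted. In genes with several starts the summit therefore need not lie at the divergent one. Genes with 1 annotated start had a summit in 7.81% of 3520 divergent and 7.88% of 6726 other cases. Genes with several starts had one in 23.5% (21.5 to 25.6) of 1621 divergent and 28.8% (26.9 to 30.8) of 2078 other cases, so among these the divergent genes had the lower share.

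The shares were then taken from the 8143 strongest peaks of each replicate. Divergent genes had a summit in 14.9%, 13.0% and 12.7% of cases in replicates 1, 2 and 3, and other genes in 13.4%, 12.2% and 13.0%. The difference was 1.52, 0.868 and −0.284 percentage points, with a mean of 0.700 ± 0.912 (SD, n = 3), and an exact two-sided sign-flip permutation test over the 3 replicates gave p = 0.5, where 0.25 is the smallest it can give. With all 30000 peaks of each list the mean difference turned to −2.02 percentage points (exact permutation p = 0.25), and with pairs at most 250 bp apart to −0.969 (0.25). The mean difference was smaller than the spread between replicates, and 3 replicates could not have reached 0.05.

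Among peaks of the IDR list, strength at divergent promoters was also close to that at single-direction promoters. The median was 2.62, 2.58 and 2.44 times the list median in replicates 1, 2 and 3 at divergent promoters, and 2.56, 2.37 and 2.53 at the others. The ratio was 1.02, 1.09 and 0.965, with a geometric mean of 1.02 (exact two-sided sign-flip permutation p = 0.75, smallest possible 0.25, n = 3). Without replicate 2 it was 0.993. Both kinds of peak had passed the same IDR cut, made from these replicates, so the ratio says nothing of peaks below it. A peak absent from a replicate list entered that replicate's median as 0. The IDR list was the strongest part of the pooled list, and of the 823 pooled peaks at divergent promoters 46.3% (42.8 to 49.8) were in it. That compares with 27.1% of all pooled peaks, 41.5% (39.96 to 43.1) at single-direction promoters and 24.4% away from coding promoters. Of the 381 peaks, 276 (72.4%, 67.7 to 76.9) were overlapped by the 8143 strongest peaks of all 3 replicates, against 72.8% of all IDR peaks and 71.6% at single-direction promoters. A further 84 were overlapped in 2 replicates and 21 in 1. The IDR list was made from these replicates, so this support is not independent of the choice of peaks.

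Summits lay close to a start, and about as often inside the nearest gene as between the pair. The pair was head to head, with the minus-strand start at the lower coordinate, for 366 of the 381 peaks. In 195 of these (53.3%, 48.02 to 58.5) the summit lay between the starts, and in 168 it lay inside the nearest gene, with 3 exactly on a start. By the strongest overlapping replicate peak the share between the starts was 54.8%, 52.2% and 53.5% in replicates 1, 2 and 3 (53.5% ± 1.27, SD, n = 3). Summits between the starts were a median of 100 bp from the nearer start, or 27.7% of the way across the gap, and 69 of 195 lay within 50 bp of the midpoint.

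The median distance to the nearest start was 89 bp, from 0 to 481, against 139 bp at single-direction promoters. The summit lay upstream of the nearest start in 53.8% of peaks at divergent promoters and 69.1% at single-direction ones. A pair offers a nearer start on either side, so how far upstream a summit can be is limited by the gap, and these shares were not tested against each other. Annotated 5′ untranslated sequence held 161 of the 381 summits (42.3%, 37.2 to 47.4), against 28.9% (26.7 to 31.2) at single-direction promoters. Coding sequence held 4. For 223 of the 381 peaks (58.5%) the summit was within 500 bp of both starts. The nearest start was on the plus strand for 195 peaks and on the minus strand for 186.

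**Figure D3:**
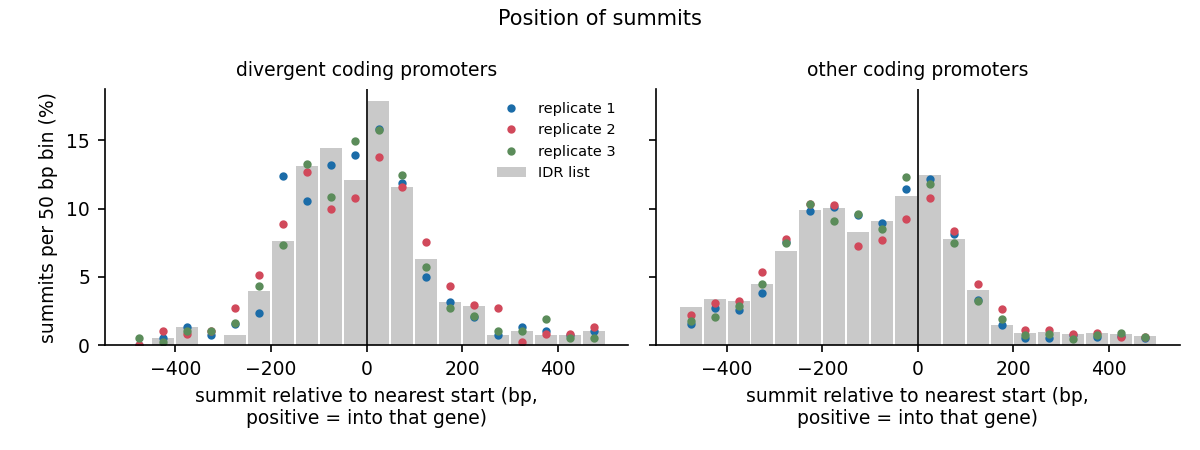
Distance of each summit from the nearest coding start, in bins of 50 bp, as a share of summits, at divergent and at other coding promoters, with positive values inside that gene. Bars are the IDR list and points the strongest overlapping peak of each replicate; at divergent promoters the summits crowd around the start, with a median distance of 89 bp against 139 bp.

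Over the genome 2640 pairs of coding starts stood head to head within 1000 bp, and 316 of them (11.97%, 10.8 to 13.3) had an IDR summit within 500 bp of the midpoint. This window is equally long for every pair, but its content differs. In the closest pairs most of it lies inside the genes, and in the widest most of it lies between the starts. Summits crowd near starts, and the part of this layout in the shares below was not tested. The share was 9.86% (7.20 to 13.1) for pairs 1 to 100 bp apart, 8.53% (6.42 to 11.1) at 101 to 250 bp and 12.9% (10.8 to 15.2) at 251 to 500 bp. It was 14.2% (11.03 to 17.9) at 501 to 750 bp and 16.7% (12.2 to 21.9) at 751 to 1000 bp. In replicates 1, 2 and 3 the widest pairs had 19.9%, 17.1% and 15.9%, above the 11.7%, 8.36% and 8.36% of pairs 101 to 250 bp apart in the same replicate. Neighbouring classes overlapped in their intervals. The median gap was 441 bp over the peaks at divergent promoters and 299.5 bp over all 2640 pairs. The first was counted per peak and includes 15 peaks whose pair was not head to head. Because the rule takes a summit within 500 bp of the nearest start, a wider pair offers more DNA in which a peak can count, and the difference was not tested.

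Density between the starts did not follow the same order. It was 0.0843 IDR summits per kb at 1 to 100 bp, 0.309 at 101 to 250 bp and 0.273 at 251 to 500 bp, and 0.113 and 0.174 in the wider classes. In the shortest class the IDR density rests on few summits, 2 of 34 between the starts, and the strongest peaks of replicates 1, 2 and 3 gave 0.337, 0.211 and 0.337 per kb there. At 251 to 500 bp 87 of 131 summits fell between the starts, and the replicates gave 0.294, 0.313 and 0.225. Over all pairs it was 0.206 per kb, or 0.225 ± 0.0268 (SD, n = 3) in the strongest peaks of the replicates. The 500 bp upstream of single-direction starts held 0.190 IDR summits per kb and 0.192 ± 0.00648 in the replicates, and their nearest 250 bp held 0.254. Which density was higher depended on the length of upstream DNA used.

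**Figure D4:**
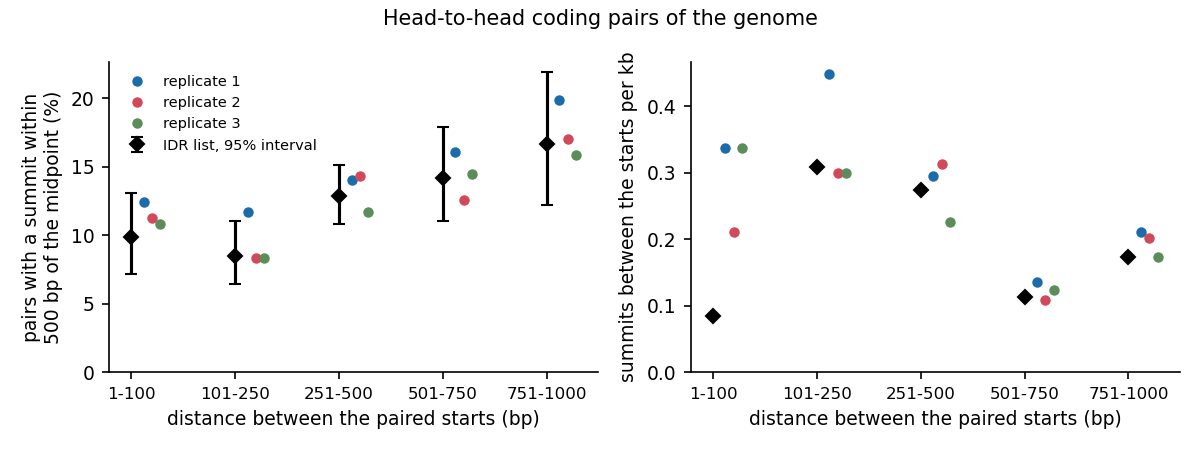
Head-to-head pairs of the genome by the distance between their starts: the share with a summit within 500 bp of the midpoint (left, diamonds are the IDR list with 95% Clopper-Pearson intervals) and summits between the starts per kb (right). Colored points are the 8143 strongest peaks of each replicate; the share is 16.7% in the widest class, and in the narrowest the IDR density of 0.0843 per kb lies below the 0.211 to 0.337 of the replicates.

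Strong peaks were found at both ends of the range of gaps. Among the strongest 25% of peaks, the shortest gaps after Atg6/Pisd were at CG34126/CG8892, Rox8/CG5986, Pex11ab/CG8320 and Ent2/Trmt6, at 27 to 36 bp. Rox8, a homolog of the RNA-binding protein TIA1, and CG5986 had a peak at 4.00, 4.91 and 4.38 times the list median. Ent2, a nucleoside transporter, and Trmt6, a tRNA methyltransferase subunit, had one at 4.91, 4.23 and 4.15 times. The widest gaps were 888 to 977 bp. Across the widest, Hsp68, a heat shock protein, faces SMC1, a cohesin subunit, with a peak at 3.89, 3.71 and 4.93 times (chr3R:24057340-24057537). The peak between Ac78C, an adenylyl cyclase, and chb, the microtubule regulator CLASP, stood at 4.58, 4.23 and 4.29 times.

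Most pairs, 286 of 332, had 1 summit, 43 had 2 and 3 had more. The summits at Alp12/Pax, where Pax encodes the focal adhesion protein paxillin, lay at different starts of the pair. Those on chr2L:19423656-19424013 and on chr2L:19426282-19426541 stood at 4.18, 6.44 and 4.44 times and at 3.92, 4.56 and 3.04 times. At lilli, which encodes a component of the super elongation complex, and NTPase the strongest of the summits stood at 5.29, 4.73 and 4.23 times. At Cftr/Esyt2 the summits were weaker, and the strongest reached 2.71, 2.23 and 2.10 times. Of the 381 peaks, 12 shared their interval with another of them.

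Genes of the basic cell machinery were divergent in a larger share than coding genes as a whole. Of 649 genes on 11 such lists, 61.5% were divergent, against 36.9% of all coding genes and 14.5% of 110 developmental genes on 3 lists. Of the 399 divergent machinery genes, 44 (11.03%) had an IDR summit within 500 bp of a start, near the 12.8% of all coding genes, and so did 16 of the 250 others (6.40%). Of the developmental genes, 51 of 94 single-direction ones (54.3%) and 4 of 16 divergent ones had a summit. These lists were chosen with earlier results of the data known, their members are not independent, and no test was made of them. Counts for each list below are to be read beside the 12.8% of all coding genes.

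Cytoplasmic ribosomal protein genes had a summit at 8 of 56 divergent (14.3%) and 6 of 37 other members (16.2%), against 12.8% of all coding genes. The values were 3.91, 3.24 and 2.99 times the list median at RpL19/CG3776 and 2.68, 2.32 and 2.91 at RpLP0/CG7130. Mitochondrial ribosomal protein genes had one at 8 of 58, among them mRpL53, whose pair with the Argonaute gene AGO1 stood at 4.51, 1.20 and 5.43 times, lowest in replicate 2. The pair of mRpL2 and the forkhead gene FoxK stood at 5.68, 6.41 and 6.63 times, but its strongest summit lay inside FoxK, 894 bp from the mRpL2 start. Of 15 single-direction mitochondrial ribosomal protein genes none had a summit, and the share of divergent ones, 13.8%, was near that of all coding genes. Translation factors had one at 5 of 28 divergent (17.9%) and 1 of 26 other genes (3.85%). Vesicle transport genes had one at 8 of 57 (14.0%) and 4 of 34 (11.8%). At Vps33B, a tethering factor of endosomes, and Fur1, a furin protease, the replicate peak stood at 4.60, 5.09 and 4.24 times. It covered an IDR summit 520 bp from the Vps33B start and 88 bp from that of Fur1, and a weaker one 321 bp from Vps33B.

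Other machinery lists held few divergent genes with a summit, and none was tested against the 12.8% of all coding genes. RNA polymerase II and its cofactors had 2 of 44 (4.55%), and aminoacyl-tRNA synthetases 1 of 23 (4.35%). The respiratory chain had 2 of 44 (4.55%), the proteasome 1 of 26 (3.85%) and splicing 2 of 26 (7.69%). The single-direction genes of these lists had few as well, in the same order 0 of 18, 0 of 10, 2 of 44, 0 of 22 and 0 of 4. The peak at TfIIS, an elongation factor of the polymerase, and solo stood at 3.49, 2.25 and 3.00 times the median, with its summit 45 bp from the TfIIS start. That at the splicing gene snRNP-U1-C and gukh stood at 3.28, 2.75 and 3.04. At MED15, a Mediator subunit, and CG4297 the summits lay 797 and 592 bp from the MED15 start, near CG4297. The respiratory pair COX5A/glo had 3.19 and 3.68 times in replicates 1 and 2 and no peak in replicate 3. DNA replication and cell cycle genes had a summit at 2 of 23 divergent and 0 of 21 other members. Chaperone genes had one at 5 of 14 divergent and 3 of 19 other members. Among the divergent ones was Hsc70-4, whose pair with tefu, the ATM kinase, stood at 3.25, 2.35 and 3.30 times.

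Glycolytic genes had a summit at 2 of 6 divergent members, Pgk and Eno, and at 4 of 7 others. The peak at Pgk, phosphoglycerate kinase, and Bacc stood at 4.06, 3.43 and 2.26 times, with the summit 133 bp from the Pgk start. At Eno, enolase, and Rrp40 the replicate peak stood at 4.72, 6.17 and 5.00. It covers both the summit counted here, of IDR rank 5340, and a stronger one of rank 485 that lies outside the rule. Polycomb and trithorax group genes had one at 4 of 17 divergent and 7 of 12 other members. The peak at Hel89B and mor, a subunit of the Brahma remodelling complex (chr3R:15973414-15973839), stood at 5.33, 4.89 and 5.64 times, with its summit inside Hel89B and 756 bp from the mor start. At gpp, the Dot1 histone methyltransferase, and Dmtn it stood at 3.09, 1.98 and 3.34, and at phol, which binds Polycomb response elements, and CG3552 at 2.62, 2.88 and 1.78.

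Only a few developmental regulators were in the class. Of 16 Hox genes and cofactors 1 was divergent and it had no summit, while 11 of the 15 others had one. Of 49 tissue regulators 2 were divergent, and of these Mef2, the muscle transcription factor, had a peak inside the gene at 4.55, 4.35 and 4.10 times. Its strongest summit lay 229 bp from the Mef2 start and 920 bp from that of Pal1. Signalling genes had a summit at 3 of 13 divergent and 18 of 32 other members. The Wnt receptor gene fz2, facing CG33647, stood at 3.46, 3.27 and 3.00 times. At Nop17l and sax, a BMP type I receptor, the values were 6.0, 2.57 and 1.54, so the replicates differed widely, and the summit lay 528 bp from the sax start. Odorant, gustatory and ionotropic receptor genes had a summit at 0 of 27 divergent and 0 of 152 other members, and cuticle protein genes at 1 of 6 and 6 of 89. Genes with only a CG number were 197 of the 658 genes (29.9%), against 1806 of the 5141 divergent genes and 6097 of the 13945 coding genes.

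Peaks at divergent and single-direction promoters differed in how often they held some promoter words. Words were sought on both strands within 50 bp on each side of the summit. The GAGA word GAGAGAG was in 4 of 381 windows (1.05%, 0.287 to 2.67) at divergent and 109 of 1589 (6.86%, 5.67 to 8.22) at single-direction promoters, and in 4.27% of all IDR peaks. The DREF and BEAF-32 element TATCGATA went the other way, in 13 windows (3.41%, 1.83 to 5.76) against 17 (1.07%, 0.624 to 1.71), and in 0.479% of all IDR peaks. Its core CGATA, which every TATCGATA holds, was in 21.0% (17.0 to 25.4) against 14.98% (13.3 to 16.8). The motif 1 word GGTCACAC was in 2.89% (1.45 to 5.11) against 1.07% (0.624 to 1.71).

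The homeodomain core TAATTA was in 41 windows at divergent promoters (10.8%, 7.83 to 14.3) and 73 at single-direction ones (4.59%, 3.62 to 5.74), and in 5.15% of all IDR peaks. Windows at the midpoint of all 2640 head-to-head pairs, bound or not, held it in 11.3% (10.1 to 12.6). The posterior Hox word TTTATGG was in 2.89% (1.45 to 5.11) of divergent and 2.27% (1.59 to 3.12) of single-direction promoter peaks, and in 6.76% (6.14 to 7.41) of IDR peaks away from coding promoters. The Extradenticle and Hox word TGATTTAT was in 1.84% (0.742 to 3.75) and 1.38% (0.870 to 2.09). TATAAA was in 14.4% (11.1 to 18.4) against 11.3% (9.75 to 12.9), the initiator TCAGTN in 15.7% (12.2 to 19.8) against 21.4% (19.4 to 23.5), the E-box CAGCTG in 4.99% (3.03 to 7.68) against 5.54% (4.47 to 6.78). CACGTG was in 1.05% against 1.45%, and the Zelda word CAGGTAG in 0.262% against 0.315%.

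Base composition moved with these shares. Windows around summits held 40.5% G and C at divergent promoters, 37.0% where the summit was between the starts, 45.0% at single-direction promoters and 33.5% at pair midpoints. Its part in the shares of AT-rich words was not tested. With 100 bp on each side GAGAGAG was in 4.46% (2.62 to 7.05) against 15.2% (13.4 to 17.0), TATCGATA in 8.40% (5.82 to 11.7) against 2.39% (1.70 to 3.27), and TAATTA in 16.5% (13.0 to 20.7) against 9.19% (7.81 to 10.7). In the stronger 50% of the list TAATTA was in 10.9% (7.12 to 15.8) of 220 windows against 5.63% (4.18 to 7.39) of 853, so the intervals overlap. In that stronger part CAGCTG was in 1.82% (0.498 to 4.59) at divergent against 6.10% (4.59 to 7.92) at single-direction promoters, unlike the near-equal shares in the whole list. A word in a window is not a binding site.

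Starts with and without a peak were then compared in the same window. In the 100 bp before divergent starts with an IDR summit within 500 bp, TATCGATA was in 10.1% (7.96 to 12.6) of 704 windows, and in 9.45% (8.70 to 10.2) of 5664 windows before divergent starts without one. Single-direction starts held it in 2.43% (1.76 to 3.27) of 1730 windows with a summit and 3.21% (2.90 to 3.55) of 11509 without, so its share differed more between the kinds of start than with the presence of a summit. GAGAGAG was in 3.69% (2.43 to 5.36) before divergent starts with a summit and 1.71% (1.39 to 2.09) without, and in 10.3% (8.95 to 11.9) and 3.29% (2.97 to 3.64) before single-direction starts. Before divergent starts GGTCACAC was in 8.10% (6.19 to 10.4) with and 4.66% (4.13 to 5.24) without a summit, and CAGCTG in 13.1% (10.7 to 15.8) and 9.71% (8.95 to 10.5). At single-direction starts CAGCTG was also higher with a summit, in 8.61% (7.33 to 10.03) against 6.15% (5.72 to 6.61). GGTCACAC was there in 1.79% (1.22 to 2.53) with and 1.42% (1.21 to 1.65) without, so the intervals overlap. G and C made up 43.1% of windows before divergent starts with a summit and 39.9% without. Before single-direction starts they made up 48.98% and 42.1%, and the part of base composition was not tested. TAATTA was in 3.69% (2.43 to 5.36) before divergent starts with a summit and 6.46% (5.84 to 7.13) without. Single-direction starts held it in 2.08% (1.46 to 2.87) with and 5.20% (4.81 to 5.63) without, so its share was lower with a summit at both kinds. The same was seen for TATAAA, in 11.9% with and 17.5% without a summit at divergent starts, and 9.77% and 20.1% at single-direction ones. The word TTTATGG was level at divergent starts, in 1.56% with and 1.54% without. Starts of 1 gene can share such windows. Of the 381 peaks, 235 held none of the 10 words counted, 126 held 1 and 20 held more.

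**Figure D5:**
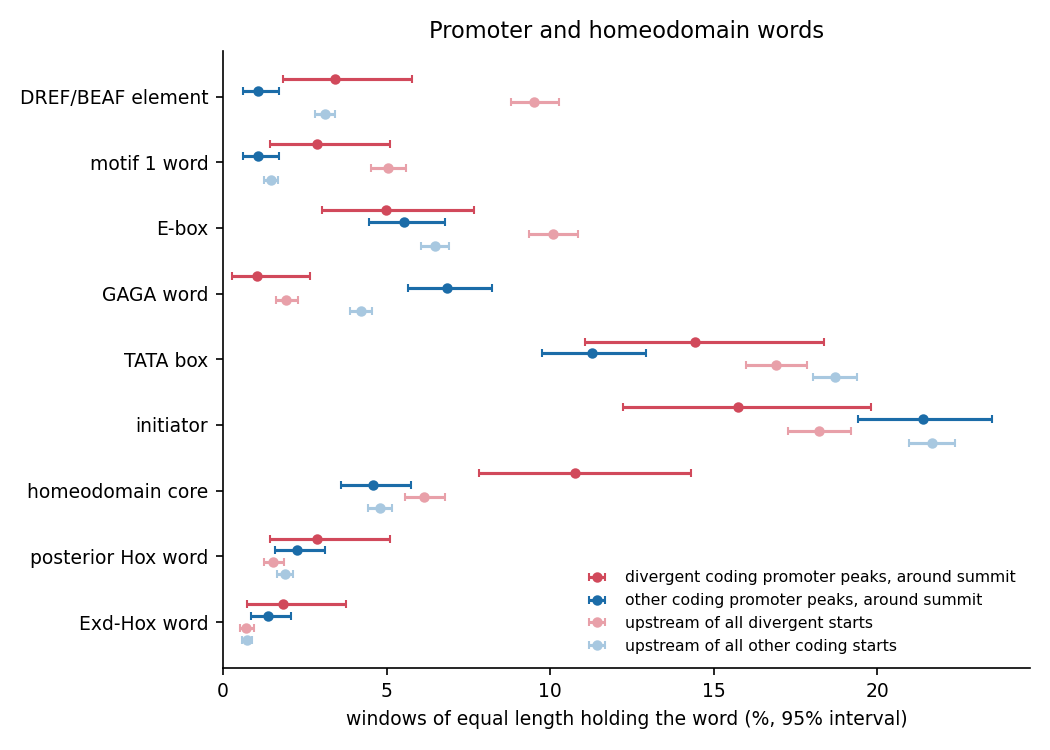
Share of windows that hold each word on either strand, around summits at divergent and other coding promoters and upstream of all divergent and all other coding starts, with 95% Clopper-Pearson intervals. Around summits the GAGA word is at 1.05% and 6.86% and the homeodomain core at 10.8% and 4.59%, at divergent and other promoters.

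By chromosome arm 77 of the 381 peaks lay on 2L, 68 on 2R, 92 on 3L, 86 on 3R, 58 on X and 0 on 4. The X held 15.2% of them, 15.4% of divergent genes and 14.0% of all IDR peaks, while 3L held 24.1%, 19.5% and 21.8%. The 15 peaks whose pair was not head to head included GstE1/GstE10, glutathione transferase genes, at 5.32, 6.89 and 3.96 times the median, and ras/stx, at 4.17, 4.71 and 3.38. Near the limits of the rule, the peaks at CG2909/alpha-Man-Ia, Dlc90F and CG14696/Leash were inside at 481, 476 and 466 bp from a start. Those at DCP2/dbo, Tsp42Ed/Tsp42Ee and Atg18b/CG8677 were outside at 506, 509 and 512 bp. By gap, CG15213/Yod1, CalpA/hts and CG33647/fz2 were inside at 1000, 999 and 987 bp. CG11961/Rgk1, CG17267/CG42322 and a second summit at Eno/Rrp40 were outside at 1007, 1008 and 1015 bp.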

How the data were processed

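The authors deposited narrowPeak lists on dm6, per the labels: 1 per replicate, 1 pooled and 1 IDR list. The signal value was used as a score of the authors' caller, ranked within a list only. The deposited −log10 q-value column was not used, and the summit offset in the deposited lists gave summits. Sonication to 200 to 800 bp is given per the labels. The aligner and caller, with the IDR cutoff, were not given in the sources used here.

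The 3 samples were taken as replicates of 1 group by the labels' replicate numbers. Starts came from Ensembl release 115 on the main arms (release 6, same coordinates as dm6), and letters from RefSeq release 6. The 95% intervals are Clopper-Pearson. Upstream windows ran from a start to 100 bp before it. Replicate differences were tested by exact sign-flip permutation. Members, gene lists, words and comparisons were chosen with earlier results of these data known. In the lists 3 symbols matched renamed genes and 3 had no match.

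Genes were named by rule: the 20 strongest peaks, the pairs with most summits, the 3 strongest of each gene list, the shortest and longest gaps among the strongest 25%, and peaks beside the limits. Peaks absent from a replicate list and pairs not head to head were named after their values were seen. Sequences are 5 of the 6 strongest with a gap of 40 to 300 bp, a summit between the starts, no transcript over the gap, and not on 2R; the other one is not reported here. Alternatives were other starts, pair distances, summit distances, list lengths, overlap rules and left-out replicates. The class and word searches were tested on simulated data. Python 3.11.15, numpy 2.4.6, pandas 2.3.3, scipy 1.17.1 and matplotlib 3.10.9 were used.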

Additional observations from a re-analysis of the deposited data

How the results depend on the processing

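The number of peaks was 225 with pairs at most 500 bp apart, 91 at most 250 bp apart and 220 in the stronger 50% of the list. With pairs at most 250 bp apart the mean difference in gene share was −0.969 percentage points, and with full replicate lists −2.02. The share of summits between the starts was 47.9% with only gene 5′ ends as starts and 39.8% with pairs at most 250 bp apart. Support in all replicates was 61.4% in the stronger 50% of lists, 45.9% when overlap of 50% of both peaks was required, 58.3% with summits within 100 bp and 94.2% with full lists. Leaving out each replicate in turn gave 0.292 to 1.19 percentage points for the gene share, 0.993 to 1.05 for the signal ratio, 76.6% to 81.6% for support in the remaining replicates and 52.9% to 54.2% for summits between starts. The signal ratio fell below 1 only without replicate 2 among the alternatives run. The cause of these changes was not tested, except that a smaller pair distance or list leaves fewer peaks. No paired analysis was possible because there is 1 group, so replicate numbers pair no samples across groups; the sign-flip tests pair both kinds of promoter within each replicate. Read depth was unknown, so absence from a list could not be set against depth.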
